A study of Homo sapiens with 6 samples.

Results

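ER-associated degradation (ERAD) was followed at the level of RNA through 10 genes, which were taken by symbol from the 29982 gene symbols of the expression table: HERPUD1, SYVN1, SEL1L, DNAJB9, EDEM1, EDEM3, OS9, DERL1, DERL2 and DERL3. OVCAR5, an established ovarian cancer cell line, was exposed to 10 μM SpiD7, a spirocyclic dimer that modifies proteins covalently, or to the vehicle DMSO. The 6 libraries were 2 of DMSO-treated cells, 2 after 2 h of SpiD7, 1 after 6 h and 1 after 12 h. The labels name no other agent and no genetic change, and they do not say how long the vehicle was applied. All libraries were of this 1 cell line.

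Expression was given as FPKM (fragments mapped to a transcript, per length of the transcript and per number of reads mapped in the library), a scale on which levels of different genes can be set side by side because it is corrected for length. The second DMSO library and the second 2 h library (replicate 2) were recovered from columns that were read as the mean of both libraries of a group. This reading rests on the values alone. The labels do not say whether libraries of the same group came from separate cultures, so that a p-value here measures only the spread between these libraries. The table holds FPKM without read counts. The study's methods give an approximate number of reads for every sample alike, but the depth of each library is unknown from the table and no counting error could be given. The epithelial markers EPCAM (77.4 to 86.5 FPKM over the 6 libraries), KRT8, KRT18 and KRT19 were high, PAX8 lay between 1.64 and 2.12 FPKM, and WT1 and MUC16 did not exceed 0.141 and 0.686 FPKM. Of the leukocyte markers, CD3E was listed at 0 throughout, PTPRC did not exceed 0.0317 FPKM, and CD68, a macrophage marker that other cells also express, was at 22.7 to 37.3 FPKM.

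ERAD removes misfolded proteins from the endoplasmic reticulum (ER). Lectins and mannosidases in the lumen select glycoproteins that fail to fold, a membrane complex built around the ubiquitin ligase HRD1 moves them to the cytosol and marks them with ubiquitin, and the ATPase VCP pulls them out of the membrane for the proteasome. Many ERAD genes are known targets of the unfolded protein response (UPR), the signalling system by which the ER adjusts its folding and disposal capacity, and secretory cells in particular depend on it.

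In these libraries HERPUD1 and DNAJB9 lay far above DMSO after SpiD7, and the other 7 genes with a measurable level stayed within a factor of 2 of it at every time. HERPUD1 was 2.91-fold higher than the DMSO mean at 2 h, 11.3-fold after 6 h and 16.0-fold after 12 h, and DNAJB9 was 2.99-fold, 5.26-fold and 5.37-fold higher. The values are averages over a culture, in which more cells expressing a gene and more RNA per cell cannot be told apart. After Benjamini-Hochberg adjustment over all 13287 genes tested, 0 of the 9 genes with a mean of at least 1 FPKM passed the limma test at 2 h (0.0226% of all genes did), 0 at 6 h (0.294%) and 0 at 12 h (0.339%). DERL3 was close to 0 in every library and was not tested.

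At an unadjusted p under 0.05 the limma counts were 0 members and 378 genes (2.84%) at 2 h, 2 members and 738 genes (5.55%) at 6 h, and 2 members and 1221 genes (9.19%) at 12 h. The members in the later counts were HERPUD1 and DNAJB9. With 1 library each at 6 h and 12 h, these counts assume that the lone library varies like the DMSO and 2 h pairs. The members more than 2-fold higher than the DMSO mean were the same pair at each time, 2 of 9, against 2.32% of all genes after 2 h, 5.66% after 6 h and 6.48% after 12 h. Without the first DMSO library the count at 2 h was 0 of 9, and the share of all genes without that library is not given here. The same 2 were more than 2-fold higher than each DMSO library, against 3.21% of genes at 6 h and 3.88% at 12 h. Lower by more than 2-fold than the DMSO mean were 0 of 9 at each time, against 0.662% of all genes after 2 h, 3.1% after 6 h and 3.76% after 12 h, so that 0 of 9 is near the background.

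HERPUD1 encodes HERP, a short-lived membrane protein with a ubiquitin-like domain that joins the HRD1 complex. The deposited locus is chr16:56932061-56943881 (hg38). Its FPKM was 14.3 and 33.2 in the first and the recovered DMSO library, 50.7 and 79.7 in the 2 h libraries, then 248 after 6 h and 350.0 after 12 h. Each SpiD7 library was thus above each DMSO library, and the order of the levels followed the time of exposure. The RefSeq promoter windows, from 250 bases before to 50 after the start of the gene in GRCh38.p14, were matched for 8 of the 10 genes, that is all but DERL1 and DERL3. They were searched on both strands for exact matches to 5 motifs of ER and heat stress. Only the window of HERPUD1 among these 8 held a match, to ERSE-II (ATTGGNCCACG), a relative of the ER stress response element that UPR factors bind, at positions -117 to -107 from the start. The windows of HERPUD1 (chr16:56931892-56932191, plus strand), DNAJB9 (chr7:108569624-108569923, plus strand) and EDEM1 (chr3:5187457-5187756, plus strand) are shown. They were chosen because, relative to DMSO, HERPUD1 and DNAJB9 lay highest of the members after SpiD7 and EDEM1 lay lowest at 6 h. Capitals mark the ERSE-II match.
HERPUD1: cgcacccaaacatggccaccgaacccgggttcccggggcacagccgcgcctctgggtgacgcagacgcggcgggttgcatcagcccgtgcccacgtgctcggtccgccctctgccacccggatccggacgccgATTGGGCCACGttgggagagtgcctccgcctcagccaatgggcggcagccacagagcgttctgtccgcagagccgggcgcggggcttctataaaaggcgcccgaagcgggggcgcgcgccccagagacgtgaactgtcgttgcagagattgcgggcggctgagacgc
DNAJB9: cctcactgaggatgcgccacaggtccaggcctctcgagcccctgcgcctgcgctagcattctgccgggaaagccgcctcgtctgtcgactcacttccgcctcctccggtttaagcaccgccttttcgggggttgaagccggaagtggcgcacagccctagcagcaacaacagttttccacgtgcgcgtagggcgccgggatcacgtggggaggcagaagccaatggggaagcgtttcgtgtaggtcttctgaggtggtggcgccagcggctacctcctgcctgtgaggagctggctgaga
EDEM1: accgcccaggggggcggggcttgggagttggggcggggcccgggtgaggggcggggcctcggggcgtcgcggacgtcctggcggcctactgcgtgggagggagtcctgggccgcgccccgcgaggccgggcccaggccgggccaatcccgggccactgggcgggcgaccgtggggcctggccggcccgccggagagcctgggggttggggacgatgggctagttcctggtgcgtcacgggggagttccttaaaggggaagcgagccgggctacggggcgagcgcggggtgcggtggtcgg

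ERSE-II was found in 19 of the 35116 promoter windows of the reference table, which is 0.0541%. The ER stress response element itself (ERSE, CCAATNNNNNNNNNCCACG) was found in 0.0769% of all windows and in 0 of the 8, and the core of the UPR element (TGACGTGG) in 0.729% and 0 of 8. The element bound by CHOP and ATF4 (TGATGNAAT) was in 0.991% of windows and the heat shock element (GAANNTTCNNGAA or TTCNNGAANNTTC) in 0.490%, and neither was in any of the 8. The ERSE-II letters do not overlap another match. Only exact matches were counted, so that sites close to a motif were missed. The HERPUD1 window also holds ccaatgggcggcagccaca, which departs from ERSE only in its last base. The SYVN1 window holds ccattgctatgggcccacg, which departs from ERSE in a single base too. In the DNAJB9 window tcacgtgg departs in a single base from the core of the UPR element. Such near sites were not searched for across the windows, so they have no background and are not particular to HERPUD1. These matches describe the letters of the windows and say nothing of binding in OVCAR5 cells.

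**Figure D1:**
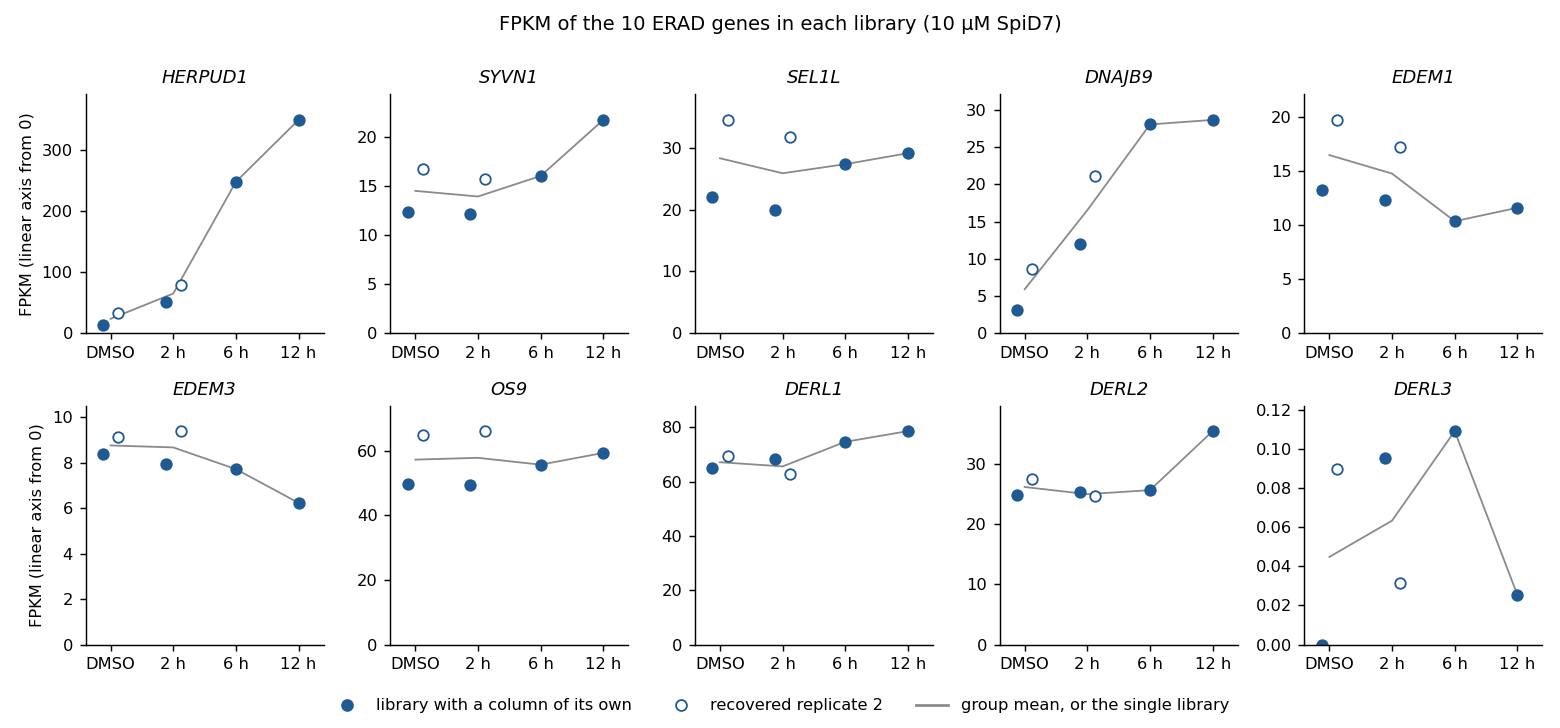
FPKM of each ERAD gene (vertical axes, linear and starting at 0, with a scale of its own for each gene) in DMSO and after 2, 6 and 12 h of 10 μM SpiD7. Filled points are libraries with a column of their own, open points the recovered replicate 2, and the line joins the group means. HERPUD1 runs from 14.3 and 33.2 FPKM in DMSO to 350.0 at 12 h, DNAJB9 is at 28.0 at 6 h and 28.7 at 12 h, and DERL3 does not exceed 0.109 FPKM.

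On the scale of log2(FPKM + 0.1), which is used for every fold change here, HERPUD1 differed from the DMSO mean by 1.54 at 2 h with a standard error of 0.54 (n = 2 libraries a group). The limma test across all genes gave this an adjusted p of 1.0, with a 95% interval of the difference from -0.06 to 3.14. Within the libraries of the same number the difference was 1.82 for the first pair and 1.26 for the recovered pair. The 6 h and 12 h libraries were each set against the same DMSO libraries, so that these comparisons are not independent of each other or of the one at 2 h. At 6 h the difference was 3.50 against the DMSO mean, 4.11 and 2.90 when the first or the recovered DMSO library was used alone. At 12 h it was 4.0, 4.60 and 3.39, which is 24.3-fold and 10.5-fold against the single DMSO libraries. By this difference HERPUD1 took place 169 of the 13287 genes tested after 2 h, place 94 after 6 h and place 90 after 12 h. In a limma fit of all 6 libraries, where the single libraries are assumed to vary like the pairs, the adjusted p of HERPUD1 was 0.556 at 6 h and 0.405 at 12 h.

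DNAJB9 encodes ERdj4, a J-domain protein of the ER lumen that works with the chaperone BiP and takes part in ERAD. It lies in the deposited locus chr7:108562143-108574850, which is shared with THAP5. DNAJB9 had 3.17 and 8.66 FPKM in the DMSO libraries, 12.0 and 21.1 in the 2 h libraries, then 28.0 after 6 h and 28.7 after 12 h. As for HERPUD1, no SpiD7 library overlapped the DMSO libraries, but nearly all of the distance was covered by 6 h. From 6 h to 12 h the level of DNAJB9 differed 1.02-fold, whereas that of HERPUD1 differed 1.41-fold. The log2 difference of DNAJB9 from the DMSO mean was 1.58 at 2 h, with a standard error of 0.64 and a limma adjusted p of 1.0. It was 2.39 at 6 h and 2.43 at 12 h, with limma adjusted p of 0.868 and 0.538 from the fit of all 6 libraries. With the first or the recovered DMSO library alone, the 12 h difference was 3.14 or 1.71. The neighbour THAP5 had 5.65 and 5.55 FPKM in DMSO, 8.31 and 6.81 at 2 h, then 8.63 after 6 h and 7.12 after 12 h, a log2 difference of 0.34 at 12 h. Reads of overlapping genes may have been divided between them, and the use of strand in counting is not given in the sources used here.

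Both genes were also uneven between the DMSO libraries. HERPUD1 was 2.31-fold and DNAJB9 2.68-fold higher in the recovered DMSO library than in the first, differences as large as or larger than these being seen in 8.87% and 6.25% of all genes. Between the 2 h libraries the recovered one was higher 1.57-fold for HERPUD1 and 1.75-fold for DNAJB9. With the first DMSO library left out, the log2 difference at 2 h was 0.94 for HERPUD1 and 0.87 for DNAJB9, so that neither exceeded 2-fold. With the recovered DMSO library left out it was 2.14 and 2.29. At 6 h and 12 h both genes remained more than 2-fold above whichever DMSO library was kept.

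All 9 tested genes were higher in the recovered DMSO library than in the first, and 7 of them in the recovered 2 h library than in the first, against 45.0% and 44.6% of all genes. The endothelial markers PECAM1 and CDH5 were also higher there: their sum was 11.4 and 8.28 FPKM in the recovered DMSO and 2 h libraries and between 0.433 and 1.11 in the other 4. The fibroblast markers COL1A1, COL3A1 and DCN summed to 2.83 and 2.41 FPKM in the recovered libraries and to at most 1.99 in the others. The leukocyte list (PTPRC, CD3E and CD68), of which only CD68 was above 1 FPKM, summed to 37.3 and 31.3 against 22.7 to 27.1. The epithelial markers had no common direction. The sum of the 8 genes, nearly all KRT8 and KRT18, was 3478 and 2944 against 3648 to 4232, but CDH1 was higher in the recovered libraries, at 19.2 and 19.3 against 10.4 to 12.8, and so was MUC16, at 0.686 and 0.670 against 0.0693 to 0.228. The share of MIR6723 in all FPKM was 25.0% and 21.8% in the recovered libraries, against 5.04% to 9.19% in the others. The part of these shifts in the DMSO and 2 h values of the ERAD genes was not tested. Within the 4 libraries that have a column of their own, the log2 difference from DMSO at 2, 6 and 12 h was 1.82, 4.11 and 4.60 for HERPUD1 and 1.89, 3.11 and 3.14 for DNAJB9, each larger than with all libraries.

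The ligase SYVN1, also named HRD1, and its partner SEL1L, which stabilizes the ligase and links it to the lectins, stayed close to DMSO at 2 h and 6 h. SYVN1 (chr11:65120626-65134532, a locus shared with FAU, MRPL49 and MIR6751) had 12.4 and 16.7 FPKM in DMSO, 12.2 and 15.7 at 2 h, then 16.1 after 6 h and 21.8 after 12 h. The 12 h library was above both DMSO libraries, by 1.76-fold and 1.30-fold, and the log2 difference of 0.60 from their mean had a limma adjusted p of 0.675. The neighbour FAU, a gene of the small ribosomal subunit, was far higher at 617 to 991 FPKM over the 6 libraries, with a log2 difference of 0.42 at 12 h. SEL1L (chr14:81471546-81533861) had 22.1 and 34.5 FPKM in DMSO, 20.0 and 31.8 at 2 h, then 27.4 after 6 h and 29.1 after 12 h. The 6 h and 12 h values of SEL1L lay between the DMSO libraries, which differed 1.56-fold from each other.

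The genes of glycoprotein selection, EDEM1, EDEM3 and OS9, lay near or below DMSO. EDEM1 and EDEM3 are mannosidase-like proteins that trim the glycans of misfolded proteins, and OS9 is a lectin that hands the trimmed proteins to SEL1L. EDEM1 (chr3:5187673-5219965) had 13.3 and 19.8 FPKM in DMSO, 12.3 and 17.3 at 2 h, then 10.4 after 6 h and 11.6 after 12 h. EDEM3 (chr1:184690490-184754907) had 8.38 and 9.13 FPKM in DMSO, 7.95 and 9.39 at 2 h, then 7.71 after 6 h and 6.23 after 12 h. Both therefore lay below each DMSO library at 6 h and at 12 h, where there is 1 library each. For EDEM1 the log2 difference was -0.64 at 6 h and -0.47 at 12 h, and for EDEM3 it was -0.18 and -0.48. Their limma adjusted p was 0.977 for both at 6 h, and 0.785 and 0.629 at 12 h. OS9 (chr12:57693954-57721557) had 49.7 and 64.7 FPKM in DMSO, 49.5 and 66.0 at 2 h, then 55.6 after 6 h and 59.3 after 12 h, so that the later libraries lay between those of DMSO.

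The derlins are multispanning membrane proteins of the rhomboid family that act with HRD1 in moving proteins out of the ER. DERL1 (chromosome 8, 123013163 to 123042423) was the member with the highest DMSO level, at 64.9 and 69.3 FPKM, with 68.3 and 62.8 at 2 h, then 74.6 after 6 h and 78.6 after 12 h. It was above both DMSO libraries at 6 h and 12 h, but only 1.13-fold above the nearer of them at 12 h. DERL2 (chr17:5474284-5490814, shared with MIS12) had 24.8 and 27.6 FPKM in DMSO, 25.3 and 24.7 at 2 h, then 25.7 after 6 h and 35.5 after 12 h. Only the 12 h library of DERL2 was above both DMSO libraries, and the recovered 2 h library lay slightly below both. At 12 h the log2 difference of DERL2 was 0.44, with a limma adjusted p of 0.629, while the neighbour MIS12 differed by 0.25. DERL3, whose locus chr22:23786962-23839087 is shared with SMARCB1, was listed at 0 in the first DMSO library and at 0.0896 FPKM in the recovered one, at 0.0952 and 0.0315 at 2 h, then 0.109 after 6 h and 0.0254 after 12 h. These are sums of 2 rows of the table, under the filter, so that DERL3 entered no test and no fold change is given for it.

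**Figure D2:**
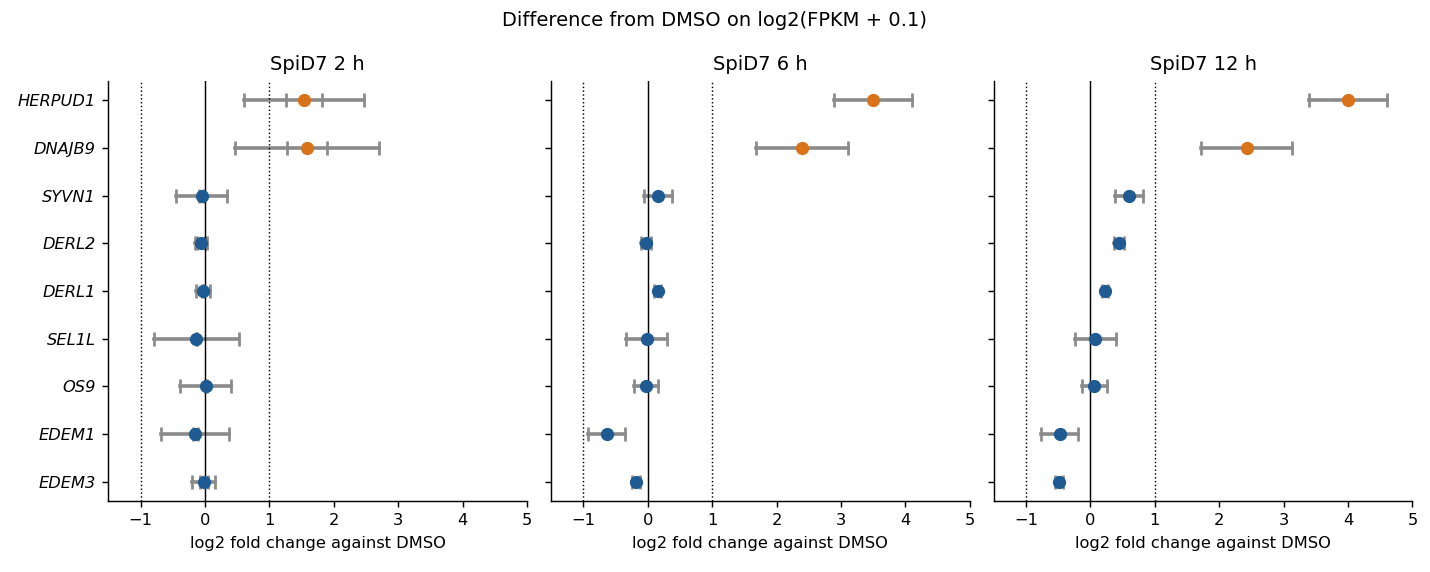
Log2 fold change of each tested ERAD gene against DMSO (horizontal axis, on log2(FPKM + 0.1)) at 2, 6 and 12 h. Points are differences from the mean of the DMSO libraries, with HERPUD1 and DNAJB9 in orange, the ticks joined by a bar are the differences between single libraries, and dotted lines mark 2-fold. HERPUD1 and DNAJB9 lie beyond 2-fold at all times, although single pairs of libraries at 2 h do not, and the other 7 genes lie between -0.64 and 0.60.

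Counts without a size limit were nearer to the background. The ranges of the 2 h and DMSO libraries were apart, with 2 h higher, for 2 of 9 members, HERPUD1 and DNAJB9, and for 13.7% of all genes. At 6 h HERPUD1, DNAJB9 and DERL1 were above both DMSO libraries, 3 of 9 against 31.6%, and at 12 h SYVN1 and DERL2 were so too, 5 of 9 against 30.1%. EDEM1 and EDEM3 were the 2 of 9 below both DMSO libraries, against 29.2% of all genes at 6 h and 35.6% at 12 h. HERPUD1 and DNAJB9 alone had a higher mean at every step from DMSO to 2 h, 6 h and 12 h, which held for 8.78% of all genes. The median log2 difference of the 9 members was -0.03 after 2 h, -0.01 after 6 h and 0.23 after 12 h, beside -0.01, 0.03 and -0.05 for all genes. For the 7 members other than HERPUD1 and DNAJB9, the difference from DMSO at 2 h was smaller than that between the DMSO libraries in 7, at 6 h in 4 and at 12 h in 3. The same share over all genes is not given, so that these counts have no background beside them and say nothing particular to the members.

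**Figure D3:**
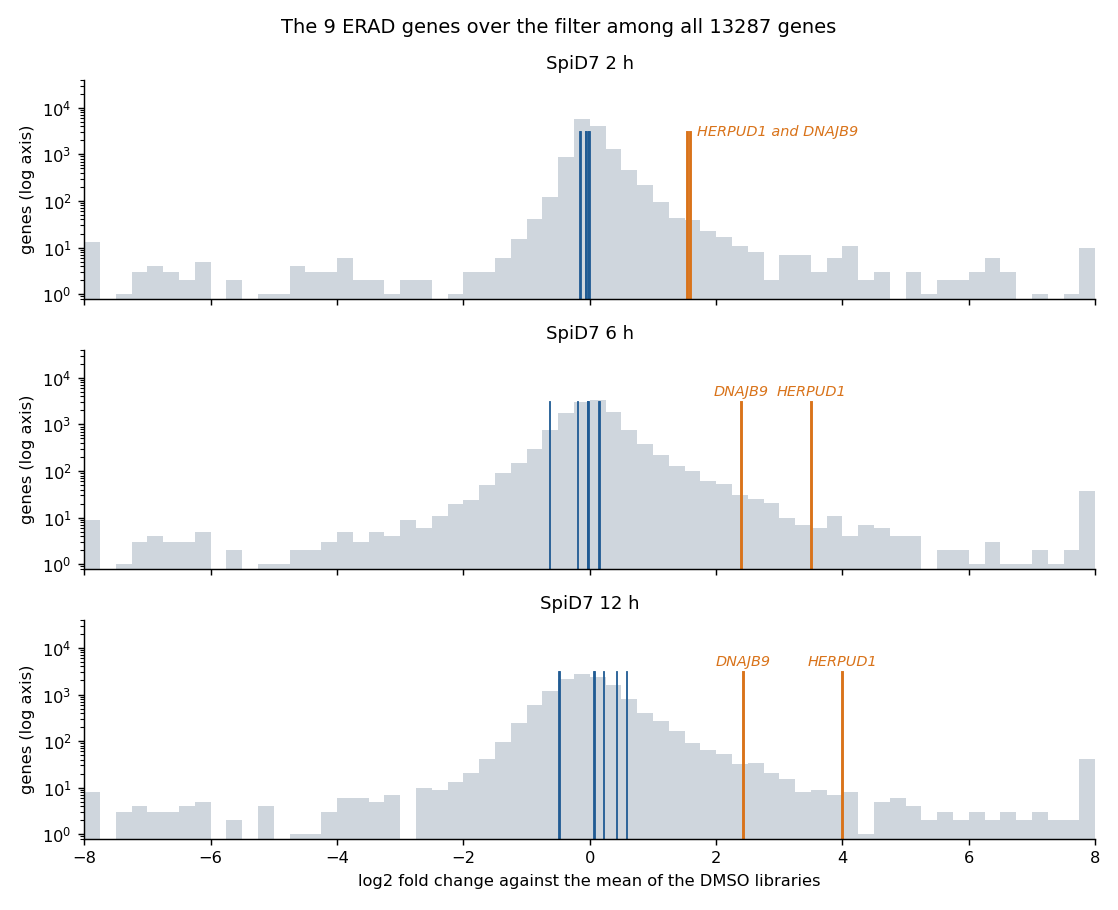
Log2 fold changes against the DMSO mean (horizontal axis) of all 13287 genes as grey bars of gene numbers on a log axis, at 2, 6 and 12 h. The outermost bars also hold the genes beyond the axis. Vertical lines are the tested ERAD genes, with HERPUD1 and DNAJB9 in orange, which lie at 1.54 and 1.58 at 2 h and at 4.0 and 2.43 at 12 h, while the 7 blue lines stay near the middle.

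The order of the levels differed between DMSO and SpiD7 mainly through HERPUD1 and DNAJB9. In DMSO the mean FPKM ran from DERL1 (67.1) and OS9 (57.2) through SEL1L (28.3), DERL2 (26.2), HERPUD1 (23.8), EDEM1 (16.5), SYVN1 (14.5), EDEM3 (8.76) and DNAJB9 (5.92) to DERL3 (0.0448). The ranges of the DMSO libraries overlapped for each pair of neighbours from SEL1L to SYVN1 and for EDEM3 and DNAJB9. They did not overlap for the steps from DERL1 to OS9, OS9 to SEL1L, SYVN1 to EDEM3 and DNAJB9 to DERL3. For DERL1 and OS9 the gap was narrow, with 64.9 FPKM as the lowest DERL1 value and 64.7 as the highest OS9 value. At 2 h HERPUD1 (65.2) was next to DERL1 (65.6), and at 6 h and 12 h it was first. DNAJB9 went from place 9 in DMSO to place 6 at 2 h and place 4 at 6 h, and was at place 6 at 12 h. The summed FPKM of the 10 genes was 213 and 284 in DMSO, 258 and 328 at 2 h, then 494 after 6 h and 621 after 12 h. HERPUD1 supplied 6.73% and 11.7% of this sum in DMSO, 19.6% and 24.3% at 2 h, then 50.3% after 6 h and 56.4% after 12 h. Without HERPUD1 the sum was 199 and 251 FPKM in DMSO, 208 and 249 at 2 h, then 246 after 6 h and 271 after 12 h. Only the 12 h sum was then above both DMSO libraries. It still holds DNAJB9, which had 3.17 and 8.66 FPKM in DMSO and 28.7 at 12 h. The sum without both genes is not given.

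Across the 6 libraries, which share a DMSO group and include the 2 recovered ones, the log2 values of HERPUD1 and DNAJB9 had a Pearson r of 0.94 (n = 6 libraries). SEL1L and OS9 had an r of 0.96 with each other but of 0.30 and 0.29 with HERPUD1. EDEM1 and EDEM3 had an r of -0.52 and -0.67 with HERPUD1. Among the 1066 genes outside the ERAD lists with a range of at least 2 on the log2 scale, the profiles most like that of HERPUD1 were those of MAFA (r = 0.998), ACRC (0.992), PAQR9 (0.989), SPDYA (0.987) and LOC100506358 (0.983). All 5 were low: MAFA was at 0.682 and 1.49 FPKM in DMSO and 7.15 at 12 h, and ACRC at 0.501 and 0.777 in DMSO and 6.17 at 12 h. These r values describe 6 points and carry no test.

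A list of 44 other ERAD genes was followed in the same comparisons, and all 44 were found and passed the filter. By limma, 0 of 44 passed at 2, 6 or 12 h, and at an unadjusted p under 0.05 there were 0, 0 and 5, beside 2.84%, 5.55% and 9.19% of all genes. At 12 h 1 of 44, SDF2L1, was more than 2-fold higher than the DMSO mean, against the 6.48% of all genes given for the members, and 0 of 44 were more than 2-fold lower (3.76% of all genes). Of the 44, 15 were above both DMSO libraries at 12 h (30.1% of all genes) and 14 below both (35.6%). The median log2 difference of the 44 was 0.0044 at 2 h, then 0.05 after 6 h and 0.0074 after 12 h. The highest 12 h value among the 44, 1.10, was below those of HERPUD1 and DNAJB9.

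The 2 highest of the 44 at 12 h encode proteins of the ER lumen, where DNAJB9 also works. DNAJC10, also a protein of the lumen, was among the lowest. SDF2L1, a partner of DNAJB11, had 27.9 and 31.4 FPKM in DMSO, 17.9 and 24.7 at 2 h, then 38.7 after 6 h and 63.5 after 12 h, a log2 difference of 1.10. DNAJB11, a luminal J protein like DNAJB9, had 160 and 171 FPKM in DMSO, 178 and 194 at 2 h, then 233 after 6 h and 312 after 12 h, a log2 difference of 0.92. VIMP, a membrane protein that recruits VCP, differed by 0.76 and SGTA, a co-chaperone that works with the BAG6 complex, by 0.60. The lowest were ERLIN2, a membrane scaffold of the degradation of inositol trisphosphate receptors, at -0.85, DNAJC10, a luminal reductase with a J domain, at -0.68, and UGGT2, a glucosyltransferase of the folding cycle, at -0.59. The limma adjusted p of these 7 genes at 12 h lay between 0.467 and 0.710.

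By role, the 4 luminal J proteins and reductases had a median log2 difference of 0.73 at 12 h. This list also holds SDF2L1, the partner of DNAJB11, at 1.10. Of the 4, 3 were above both DMSO libraries (30.1% of all genes) and 1, DNAJC10, was below both (35.6%). The 8 genes of extraction by VCP had a median of 0.19, the 4 partners of the HRD1 complex 0.12 and the 7 other membrane ligases -0.0013. The 6 lectins, mannosidases and glycan enzymes had a median of -0.36, with 0 above and 4 below both DMSO libraries, beside the same shares of all genes. The ubiquitin-conjugating enzymes had a median of -0.15, the BAG6 complex 0.06 and the other membrane factors -0.01. Differences between these roles were not tested.

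**Figure D4:**
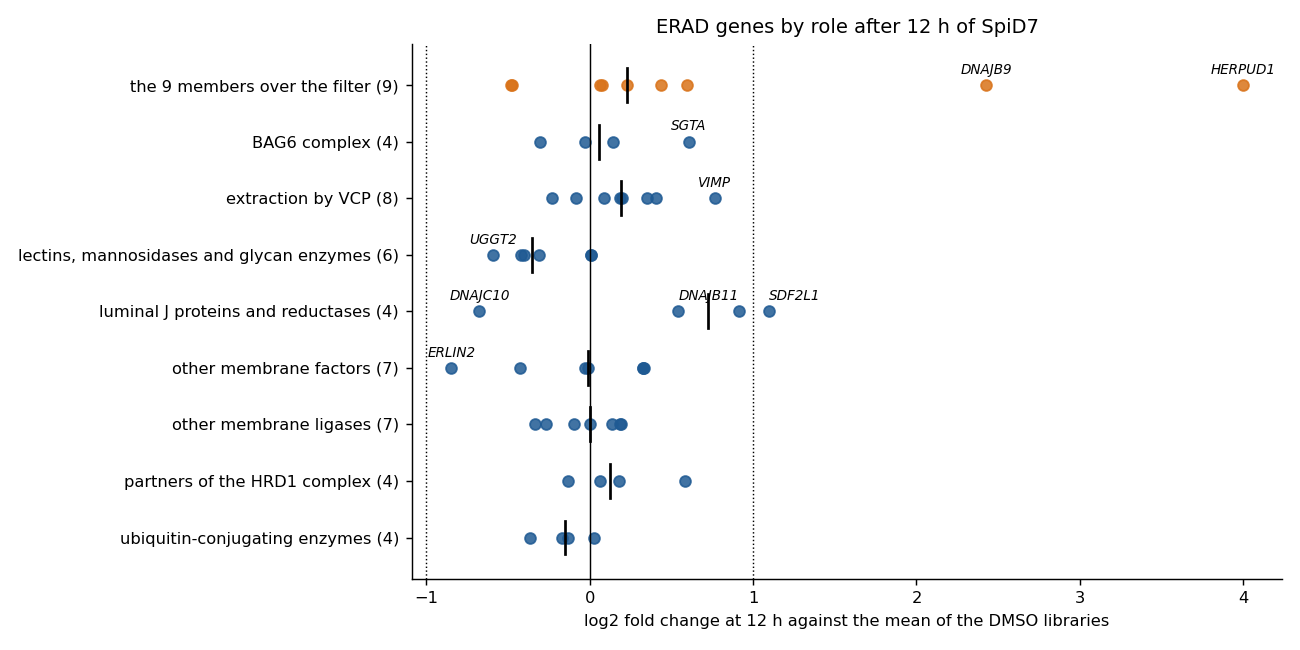
Log2 fold change at 12 h against the DMSO mean (horizontal axis) for the 9 tested members (orange) and 44 other ERAD genes (blue) by role, with the number of genes in parentheses. Each point is a gene, black bars are medians and dotted lines mark 2-fold. HERPUD1 (4.0) and DNAJB9 (2.43) lie to the right of SDF2L1 (1.10), the highest of the other genes.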

How the data were processed

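Per the methods of the study, the authors used Trim Galore for trimming, TopHat 2.0.8 for alignment, and Cufflinks and Cuffdiff 2.1.1 for expression and its comparison. The methods name a mouse build, whereas the loci are human (hg38). The authors deposited FPKM values of both sides of 4 Cuffdiff comparisons, with their own fold changes, p-values and q-values, which were not used. Every FPKM column was tied to a library or group (0 without).

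Comparisons 3 and 4 were brought to the scale of comparison 1 through the DMSO library they share (factors 0.972 and 0.994). The columns of comparison 2 were read as means of both libraries of a group, since no value above 0 in the first library was at 0 there and 805 rows for DMSO and 952 for 2 h lay at 0.526 and 0.509 of the first library. To obtain replicate 2, the share of the first library was taken off the mean and the rest was divided by the same share. That the second library has the same share was assumed, since the values give only that of the first. Where under 0.2% of the mean was left, the value was set to 0. Rows of the same symbol were summed and the pseudocount was 0.1. The 13287 genes with a mean of at least 1 FPKM were tested with limma 3.58.1 in R 4.3.3, at 2 h with 2 against 2 libraries and at 6 h and 12 h in a fit of all 6 libraries. Genes were called at an adjusted p under 0.05. Python 3.11.15, pandas 2.3.3 and numpy 2.4.6 were used for the tables, and the scripts were tested on simulated data. Promoter windows came from RefSeq.

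The 10 members and the lists were chosen with earlier results of these data known. The text names every member, the 4 highest and 3 lowest other ERAD genes at 12 h, the 5 profiles most like HERPUD1, marker genes and genes that share a locus. MIR6723 was named for its share of the totals after its values were seen. Alternatives were pseudocounts of 1 and 0.01, filters, scalings, the treatment of repeated symbols, an intensity trend, a replicate block, the mean columns as deposited, and leaving out each replicate.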

Additional observations from a re-analysis of the deposited data

How the results depend on the processing

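The number of members called by limma was 0 under every alternative run, and the number more than 2-fold higher was 2 at each time, except at 2 h without DMSO replicate 1, where it was 0. Leaving out the DMSO or 2 h libraries in turn thus gave 0 to 2 members at 2 h. The shares of all genes in these settings are not given, so that the change of the count is not set against a background. The log2 difference at 2 h of 7 members turned its sign when a library was left out. Its range was -0.44 to 0.14 for EDEM1, -0.14 to 0.10 for EDEM3, -0.20 to 0.22 for OS9, -0.27 to 0.16 for SYVN1, -0.47 to 0.20 for SEL1L, -0.094 to 0.026 for DERL1 and -0.14 to 0.012 for DERL2. Median-ratio and upper-quartile scaling gave -0.018 and -0.023 for OS9 in place of 0.012, and under both scalings the same members lay above or below both DMSO libraries. When 1 library was left out, the spread came from the remaining pair and the lone library was assumed to vary like it.

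DMSO and 2 h libraries share the numbers 1 and 2 in their labels, and nothing says that a number marks a shared culture or day. Across genes, the deviations of same-numbered libraries had a correlation of 0.369. With the replicate block the log2 difference at 2 h was again 1.54 for HERPUD1 and 1.58 for DNAJB9, and the limma adjusted p was 0.329 for both, within a range of 0.329 to 1.0 over the 13 alternatives. The fit with the block called 0 members and 0 genes. At an unadjusted limma p under 0.05 it gave 2 members and 1874 of the 13287 genes, beside 0 members and 378 genes without the block. The block thus raised the count over all genes as well.

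The absence of counts, the single libraries at 6 h and 12 h and the recovery of replicate 2 limit these results. With the mean columns as deposited, HERPUD1 differed from DMSO by 3.80 and DNAJB9 by 2.18 on the log2 scale at 12 h. DERL1 then differed by 0.080 at 6 h and 0.154 at 12 h, in place of 0.154 and 0.228.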
